A study of Mus musculus with 4 samples.

Results

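The list of single cytosines that differed in methylation between 2 groups of mouse microglia holds 269406 positions, of which 253736 lie on autosomes and 196872 of those on either cytosine of a CpG in the mouse genome build GRCm38. Described here are the 4280 of these CpG positions that lie within 1000 bp of the start of a protein-coding transcript and inside none of the 3389 regions the authors called. They make up 2717 CpGs, since the C and the G of a CpG are separate rows of the list, and they fall near the starts of 1089 of 20757 autosomal protein-coding genes (5.25%). A further 2332 promoter positions lie inside a called region and serve as the comparison. Positions are called members below, and a gene's promoter means the 1000 bp on either side of any of its annotated starts.

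In mammals, methyl groups sit mostly on the cytosines of CpG pairs, and both strands of a CpG usually carry the same state. Promoters rich in CpGs are as a rule unmethylated in every tissue, whereas promoters with few CpGs, such as those of many tissue-restricted genes, are often methylated where the gene is silent. Microglia are the resident macrophages of the brain. IRF8 is a transcription factor of myeloid cells that binds DNA together with PU.1, an ETS family factor, at composite elements.

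The DNA came from sorted microglia of untreated C57BL/6J mice aged 3 months, 2 samples labelled WT and 2 labelled IRF8KO, whose methylomes were read by whole-genome bisulfite sequencing. The labels give neither the allele of the IRF8KO mice nor the sex of any mouse, and they do not say in words whether the samples of a group came from separate animals. At best, p-values then measure the spread between these samples, which may be technical. Many sites have the same dispersion value as other sites, and there the p-value does not rest on the spread at that site alone. The deposited tables give the outcome of a group comparison made by the authors. They hold no value per sample, no read depth and no transcript level, so neither the sorted cell type nor the loss of Irf8 could be checked in them. In their headers the groups carry numbers in place of names. First and second group below follow those numbers, a difference is the first minus the second, and no genotype is given to either. Depth being unknown, the intervals given on shares are exact binomial (Clopper-Pearson) 95% intervals that cover counting error only and treat positions or genes as independent, which neighbouring positions are not.

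The members were intermediate in methylation and moved part of the way between unmethylated and methylated. Of the 4280 members, 2518 (58.8%, 57.3 to 60.3) were higher in the first group and 1762 were lower. The share higher was 61.7% of all listed autosomal CpG positions and 64.7% of those outside both promoters and regions. A lean to higher levels was thus not particular to the members. The median fitted level of the higher members was 0.661 in the first and 0.328 in the second group, and that of the lower members was 0.380 and 0.711, on a scale from 0 to 1. Both levels lay between 0.2 and 0.8 at 2493 members (58.2%), and 2 members went from under 0.2 to over 0.8. The median absolute difference was 0.307, with quartiles of 0.278 and 0.347 and a range of 0.175 to 0.679, against a median deposited standard error (SE) of 0.105. These sizes are a description, because the authors listed a position only where the posterior probability of a difference was at least 0.95, so that small differences cannot occur among the members.

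**Figure D1:**
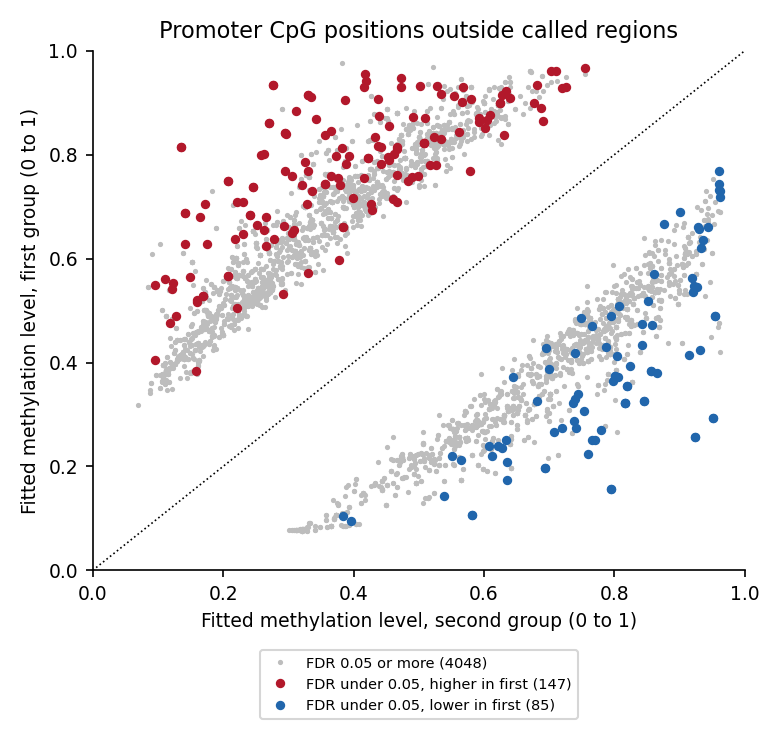
Fitted methylation level (0 to 1) of each of the 4280 members in the second group (horizontal axis) and the first group (vertical axis), with the 147 members at a false discovery rate under 0.05 that were higher in the first group in red, the 85 that were lower in blue, the others in grey and equality as a dotted line. The empty band along the line is the authors' filter on the size of the difference, and few points reach the corners.

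Few members passed the stricter threshold used here for a call, a deposited false discovery rate (FDR) under 0.05. It was met by 232 members (5.42%), on 212 CpGs near the starts of 200 genes (0.964% of all protein-coding genes). Of all listed autosomal CpG positions 17.7% met it, 10.1% as higher in the first group and 7.55% as lower. The share among the members was thus lower than in the list as a whole, which also holds the positions inside regions. It was 56.2% for the 2332 promoter positions inside called regions and 11.6% for the 157188 positions outside both promoters and regions. The regions were built by the authors from the same values, so the contrasts with positions inside them and with the whole list are a description. Of the called members 147 were higher in the first group and 85 were lower, a share of 63.4% (56.8 to 69.6) higher. At the same FDR 57.3% of all listed autosomal CpG positions were higher, and 67.3% of those outside both promoters and regions. For single genes, 187 of the 200 had 1 called CpG and 13 had more. For 59 of the 232 called members neither group had its most common dispersion, and these are said below to have own dispersions. For the others at least 1 group had that value, which many sites share. Less common values, such as 0.0509 in the first and 0.0501 in the second group, also recur between genes and were counted as own. The own-dispersion calls of Gpr171, Tmem51 and Dgkd rested on such values. Counting own dispersions only, some genes named below lost every call. They were Ccr1, Ccr9, Cxcr2, Clec4a1, Clec7a, Il17rc, Tet2, Cd79b, Sorbs3, Skint8, Gm17334, Gm15056, AB124611, Gml, Gml2, Ctsm, Olfr1496, Zfp457, Zfp74 and Zfp936. The same held for Tnip3, Cyp4a12b, Defb3, Ifit3b, Ifna1 and Ifna11.

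The called CpGs are shown first, with their surroundings, because most of them stood alone in sequence that holds hardly any other CpG. The lines give the plus strand of GRCm38 from 5′ to 3′, taken from the RefSeq copy of the genome, around a called member of 7 genes that the rule for naming genes picked out, with the called CpG in capitals. Stretches were cut where an untranslated region began.
Ccr1, chr9:123968693-123968765: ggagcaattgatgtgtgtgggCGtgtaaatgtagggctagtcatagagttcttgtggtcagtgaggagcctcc
Clec7a, chr6:129472254-129472355: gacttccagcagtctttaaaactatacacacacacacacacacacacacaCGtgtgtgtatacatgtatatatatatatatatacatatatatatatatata
Clec12a, chr6:129350883-129350984: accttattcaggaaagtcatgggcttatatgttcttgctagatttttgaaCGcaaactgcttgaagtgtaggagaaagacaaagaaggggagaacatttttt
Il15, chr8:82400798-82400899: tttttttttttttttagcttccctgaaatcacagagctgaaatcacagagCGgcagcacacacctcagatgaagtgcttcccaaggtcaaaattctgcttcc
Mx1, chr16:97461286-97461387: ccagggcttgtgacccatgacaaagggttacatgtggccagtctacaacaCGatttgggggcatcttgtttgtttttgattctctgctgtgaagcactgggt
Mtmr2, chr9:13748120-13748221: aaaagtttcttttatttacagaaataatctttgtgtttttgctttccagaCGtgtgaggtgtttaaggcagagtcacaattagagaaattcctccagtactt
Tas2r124, chr6:132754623-132754724: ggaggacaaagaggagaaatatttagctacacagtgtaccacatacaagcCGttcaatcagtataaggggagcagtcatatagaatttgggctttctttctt
Each of these 7 stretches held 1 CpG and no other. The stretches of Ccr1, Mtmr2 and Tas2r124 lie upstream of the start and those of Clec7a, Clec12a, Il15 and Mx1 in introns. The Clec7a CpG ends a run of alternating a and c bases, a simple repeat, and how well reads align there was not tested.

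At the other end stood stretches packed with members none of which was called. The next lines give 200 bases from each of 3 genes among the 20 with the most member CpGs, a set chosen after the values were seen, with every member CpG in capitals.
Usp35, chr7:97325483-97325682: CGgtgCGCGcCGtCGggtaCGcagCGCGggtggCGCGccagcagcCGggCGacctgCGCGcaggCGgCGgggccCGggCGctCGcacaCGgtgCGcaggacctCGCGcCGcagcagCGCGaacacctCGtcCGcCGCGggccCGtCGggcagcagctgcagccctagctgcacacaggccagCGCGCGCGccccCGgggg
Ajm1, chr2:25579071-25579270: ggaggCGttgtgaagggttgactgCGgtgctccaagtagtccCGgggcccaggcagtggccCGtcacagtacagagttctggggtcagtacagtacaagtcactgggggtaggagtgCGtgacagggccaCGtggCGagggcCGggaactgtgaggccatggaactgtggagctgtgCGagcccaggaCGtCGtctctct
Runx2, chr17:44737437-44737636: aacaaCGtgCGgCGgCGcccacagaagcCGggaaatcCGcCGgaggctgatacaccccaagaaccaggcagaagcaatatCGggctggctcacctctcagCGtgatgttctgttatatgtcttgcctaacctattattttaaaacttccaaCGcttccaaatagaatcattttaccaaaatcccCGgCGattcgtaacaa
In the Usp35 stretch all 37 CpGs were members, in the Ajm1 stretch all 11, and in the Runx2 stretch 12 of 13. The median fitted levels over the stretch were 0.526 and 0.255 for Usp35, 0.453 and 0.20 for Ajm1, and 0.107 and 0.373 for Runx2, the first group being named first. The first group was therefore the higher one at Usp35 and Ajm1 and the lower one at Runx2.

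The number of CpGs in a promoter went with both how often it held a member and how often that member was called. Of 1862 genes with under 10 CpGs per promoter window, 255 (13.7%, 12.2 to 15.3) held a member and 71 (3.81%, 2.99 to 4.79) a called one. Of 6802 genes with at least 80 CpGs, 147 (2.16%, 1.83 to 2.54) held a member and 16 (0.235%, 0.135 to 0.382) a called one. The 3 classes between these gave shares with a member of 8.49%, 6.45% and 4.30%. A promoter window held a median of 59 CpGs over all genes, 27.5 over genes with a member and 15 over genes with a called member.

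**Figure D2:**
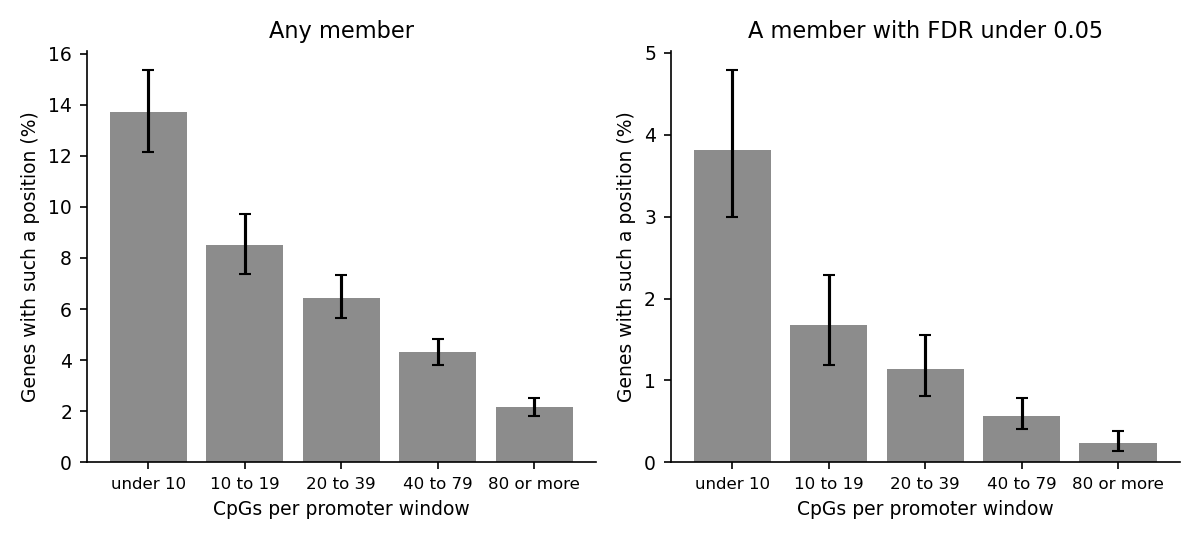
Share of genes (%) with any member (left) and with a called member (right), by the mean number of reference CpGs per promoter window of the gene, with exact 95% intervals as error bars. Both shares are highest in the promoters with under 10 CpGs (13.7% and 3.81%) and lowest in those with 80 or more (2.16% and 0.235%).

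The same gradient held for single CpGs. Where no other CpG lay within 100 bp, 658 of 50882 reference promoter CpGs outside regions (1.29%) were members, and 148 of those members (22.5%) were called. With 4 to 7 CpGs in that window 795 of 327447 (0.243%) were members and 6 were called. With at least 16 CpGs there were 150 members among 721593 (0.0208%) and none was called. Over all windows 0.163% of 1670733 reference CpGs were members. The deposited SE varied little across the classes of promoters, from a median of 0.109 in those with under 10 CpGs to 0.103 in those with 80 or more.

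The call of a CpG often rested on 1 of its 2 cytosines. Both the C and the G were listed for 1563 member CpGs, and in 1433 of them the 2 rows had the same difference within 1e-06. Neighbouring positions often share a fitted level, so equal differences are not separate measurements of the 2 cytosines. Of the 130 CpGs with both cytosines listed and a call, 110 (84.6%) were called at 1 cytosine only. In all 110 the difference was the same at both cytosines. What differed was the SE, the larger being a median of 1.58 times the smaller in those 110 CpGs and 1.06 times over all 1563. At the Ccr1 CpG shown above the authors' deposited table gives the same levels, 0.709 and 0.231, at both cytosines, with an SE of 0.0327 and an FDR of 3.38e-42 at the G, while the C missed the threshold. Another 82 called CpGs had only 1 cytosine in the list. That leaves 20 CpGs, near 20 genes, called at both cytosines, 11 of them higher and 9 of them lower in the first, with a median absolute difference of 0.530 and a range of 0.276 to 0.679.

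**Figure D3:**
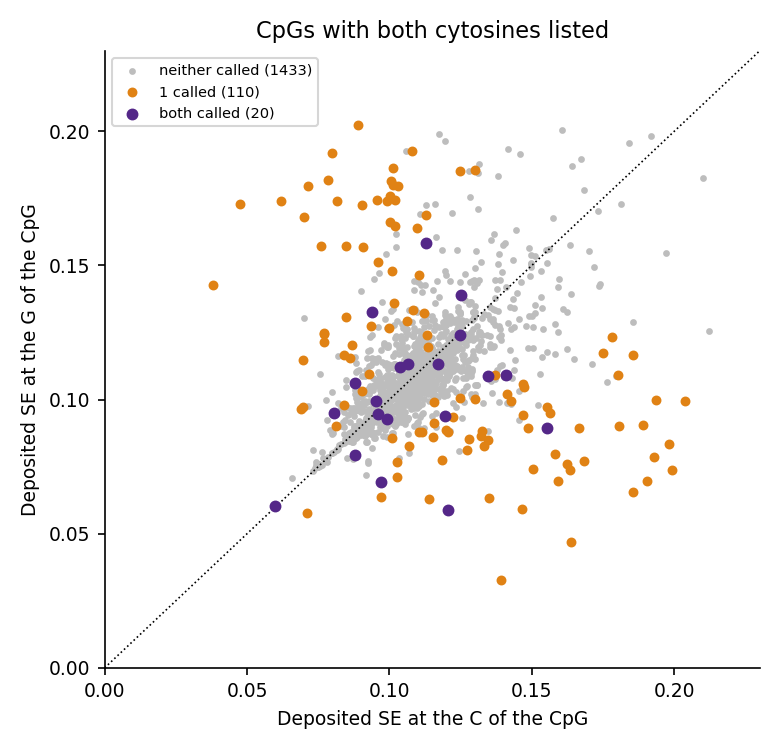
Deposited SE of the difference at the C (horizontal axis) and at the G (vertical axis) of the 1563 member CpGs with both cytosines listed, in grey where neither was called, orange where 1 was (110) and purple where both were (20), with equality as a dotted line. The CpGs called at 1 cytosine lie mostly far from the line, while those called at both lie mostly near it.

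Of 31 genes named as C-type lectins, 7 held a member (22.6%, 9.59 to 41.1, against 5.25% of all genes), 5 of them higher and 2 lower. A called one was held by 3 (9.68%, 2.04 to 25.8, against 0.964%), all higher. Clec7a encodes Dectin-1, a receptor for fungal beta-glucan that also marks activated microglia. It had 3 member CpGs in an intron, 472 to 698 bp downstream of a start, and in the authors' deposited table the called ones had levels of 0.737 and 0.246 with FDRs of 0.000379 and 0.00299. The called positions lay 314 and 372 bp from a called region. For Clec12a, an inhibitory receptor of myeloid cells, the authors' deposited table gives levels of 0.906 and 0.387 (SE of the difference 0.0995, FDR 0.000554) at 970 bp downstream of one start. A second Clec12a stretch 447 bp upstream of another start gave 0.489 and 0.127 (FDR 0.0319) in the authors' deposited table. Clec4a1 had 3 called CpGs 927 to 933 bp downstream, which share 1 fitted value in the authors' deposited table, 0.822 against 0.508 (FDR 0.0411). With own dispersions only, Clec7a and Clec4a1 kept no call and Clec12a kept the one upstream. Clec5a, with 12 member positions, all higher, was not called (lowest FDR 0.214 in the authors' deposited table).

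Of 56 genes for chemokines and their receptors, 5 held a member (8.93%, 2.96 to 19.6, against 5.25% of all genes), 3 higher and 2 lower, and 3 receptor genes held a called one (5.36%, 1.12 to 14.9, against 0.964%), all higher. Ccr1, a receptor for inflammatory chemokines, had its CpG 23 bp upstream of the start, with a difference of 0.479 in the authors' deposited table. Cxcr2, best known from neutrophils, had levels of 0.654 and 0.263 (FDR 0.0152), and Ccr9, a receptor that guides lymphocytes to the gut, had 0.867 and 0.605 (FDR 0.00853), both in introns, in the authors' deposited table. The calls of Ccr1, Cxcr2 and Ccr9 all rested on a shared dispersion and were lost where only own dispersions were counted. The members of Ccr6, a receptor of lymphocytes and dendritic cells, were lower in the first group and not called. Gpr171, an orphan-type receptor gene, had 7 member CpGs, all higher, of which 3 were called. In the authors' deposited table their first-group levels were 0.798, 0.960 and 0.875 against 0.393, 0.703 and 0.439. The Gpr171 members reached to 1 bp from a called region.

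Cytokine and interferon genes held members in both directions. Of 77 interleukin and interleukin receptor genes 8 held a member (10.4%, 4.59 to 19.4, an interval that holds the 5.25% of all genes), 4 higher and 4 lower, and 3 a called one (3.90%, 0.811 to 11.0, which holds the 0.964%). Il15, whose product sustains natural killer and memory T cells, had levels of 0.861 and 0.270 (SE of the difference 0.0938, FDR 2.32e-06) in an intron 985 bp downstream in the authors' deposited table. Il17rc had 0.780 and 0.517 (FDR 0.00122), and Il1a, an alarm cytokine, was the one lower gene called, with 0.490 and 0.954 (FDR 0.0163), in the authors' deposited table. Il15 and Il1a were each called at both cytosines. Of 26 interferon response genes 3 held a member (11.5%, 2.45 to 30.2, against 5.25% of all genes). Mx1 was the only one of these 26 called (3.85%, 0.0973 to 19.6, against 0.964%). Interferon genes outside the list were called too, and those named next were picked after their values were seen. Ifit3b was higher (FDR 3.79e-07), and Ifna1 and Ifna11 were lower (FDRs 0.0175 and 6.32e-05), in the authors' deposited table. Their calls rested on a dispersion shared by many sites. Mx1, an antiviral GTPase, had levels of 0.842 and 0.295 (FDR 3.17e-05) at a CpG 565 bp upstream of one start, and at another CpG, not called, the opposite order, 0.557 and 0.893, in the authors' deposited table. Its neighbour Mx2 had 0.479 and 0.805 with an FDR of 0.0972 in the authors' deposited table, and Ifitm3 is described with the dense stretches below.

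Iigp1, an interferon-induced GTPase directed at pathogens inside the cell, was the only gene with called CpGs in both directions. Its CpGs lie near different annotated starts. At 362 bp upstream of one start the levels were 0.198 and 0.693, and at 829 bp upstream of the other they were 0.815 and 0.136, in the authors' deposited table. All 4 cytosines were called, the authors' deposited table giving FDRs from 1.87e-12 to 0.0374. The second of these CpGs had the largest absolute difference of all members, 0.679. Iigp1 belongs to a family of near-identical genes, so reads may have been placed on the wrong copy, which was not tested.

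Of 19 microglial identity genes 4 held a member (21.1%, 6.05 to 45.6, against 5.25% of all genes) and none was called, a count that with counting error allows up to 17.6%, against 0.964% of all genes. The list had a median of 27.5 CpGs per promoter window. Of all genes with 20 to under 40 CpGs 6.45% held a member, which lies inside the interval of the list. Mef2c, a transcription factor of microglia, was higher in the first group, with median levels of 0.553 and 0.233. P2ry12, the purinergic receptor by which microglia sense ATP, was lower, with 0.372 and 0.681 in the authors' deposited table, as were Sparc (median 0.126 and 0.450) and Aif1, which encodes IBA1 (0.203 and 0.591). Of 20 genes of disease-associated microglia 5 held a member (25%, 8.66 to 49.1, against 5.25% of all genes). Clec7a, Apoc1, Ch25h and Igf1 were higher and Axl, a receptor for the clearance of dying cells, was lower with a median of 0.158 against 0.414. Of the 5 only Clec7a was called (5% of the 20, 0.127 to 24.9, against 0.964% of all genes). Members of Apoc1, Clec7a, Aif1 and Ch25h came within 1, 146, 193 and 218 bp of a called region. Those of Sparc, P2ry12, Mef2c, Axl and Igf1 lay 2046 bp or more away. Irf8 itself held 1 member, on chromosome 8 at position 120739639, exactly 1000 bp downstream of a start and thus at the edge of the window, with levels of 0.317 and 0.0701 and an FDR of 0.768 in the authors' deposited table. It lay 287 bp from a called region. No other of the 25 myeloid transcription factors, and none of 20 antigen presentation genes, held one.

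The remaining lists held few members. In the complement list C3 and Serping1 had members, both higher, and in the TGF-beta list Smad3 was higher and Acvrl1 lower. In the lysosome list Ctss and Tfeb were lower, and of the toll-like receptor list Tlr9 was lower. None of these 7 genes had a called member. Members of C3, Tlr9 and Tfeb came within 1, 159 and 196 bp of a called region. Those of Acvrl1, Ctss, Smad3 and Serping1 lay 11182 bp or more away. For each of these lists the interval on the share with a member held the 5.25% of all genes. Tet2, an enzyme that oxidises methylcytosine, was the only gene of 17 of the DNA methylation machinery with a member. Its member was called, with levels of 0.729 and 0.962 (FDR 0.0300) at 637 bp upstream of a start in the authors' deposited table. The share of the list was 5.88% (0.149 to 28.7) both with a member and with a called one. That interval holds the 5.25% and the 0.964% of all genes. No imprinted gene of 30, no germline gene of 28 and no histone gene of 67 held a member, which with counting error allows shares of up to 11.6%, 12.3% and 5.36%. Zfp genes, which encode zinc finger proteins, held members in 15 of 385 cases (3.90%, against 5.25% of all genes), 5 higher and 10 lower. The 4 called ones (1.04%, against 0.964%), Zfp106, Zfp457, Zfp74 and Zfp936, were lower, and of these Zfp106 had a dispersion of its own.

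Markers of other brain and blood cells also held some members. Among border macrophage markers these were Mrc1, Pf4 and Stab1, 3 of 11 genes (27.3%, 6.02 to 61.0, against 5.25% of all genes). All 3 were higher and none was called, which with counting error allows up to 28.5%. This list had a median of 20.75 CpGs per promoter window. Its interval on the share with a member holds the 6.45% of genes with 20 to under 40 CpGs. Among 15 lymphocyte markers Cd4 was higher, and Cd79b, part of the B cell receptor, was lower and called at 0.731 against 0.961 (FDR 0.0388) in the authors' deposited table. Of 15 neuron markers Stmn2 was called at 0.472 and 0.858 (FDR 0.0107) in the authors' deposited table, and Map2, also lower, was not. Slc4a4 of the astrocyte list, Mog of the oligodendrocyte list and Cdh5 of the endothelial list were each lower and not called, and no monocyte or neutrophil marker of 15 held a member. The Cdh5 members came within 34 bp of a called region, and those of Slc4a4 and Mog lay 118695 bp or more away. For the lymphocyte, neuron, astrocyte, oligodendrocyte and endothelial lists the interval on the share with a member held the 5.25% of all genes. For the lymphocyte and neuron lists the interval on the called share held the 0.964%. The part of other cell types in these values was not tested.

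**Figure D4:**
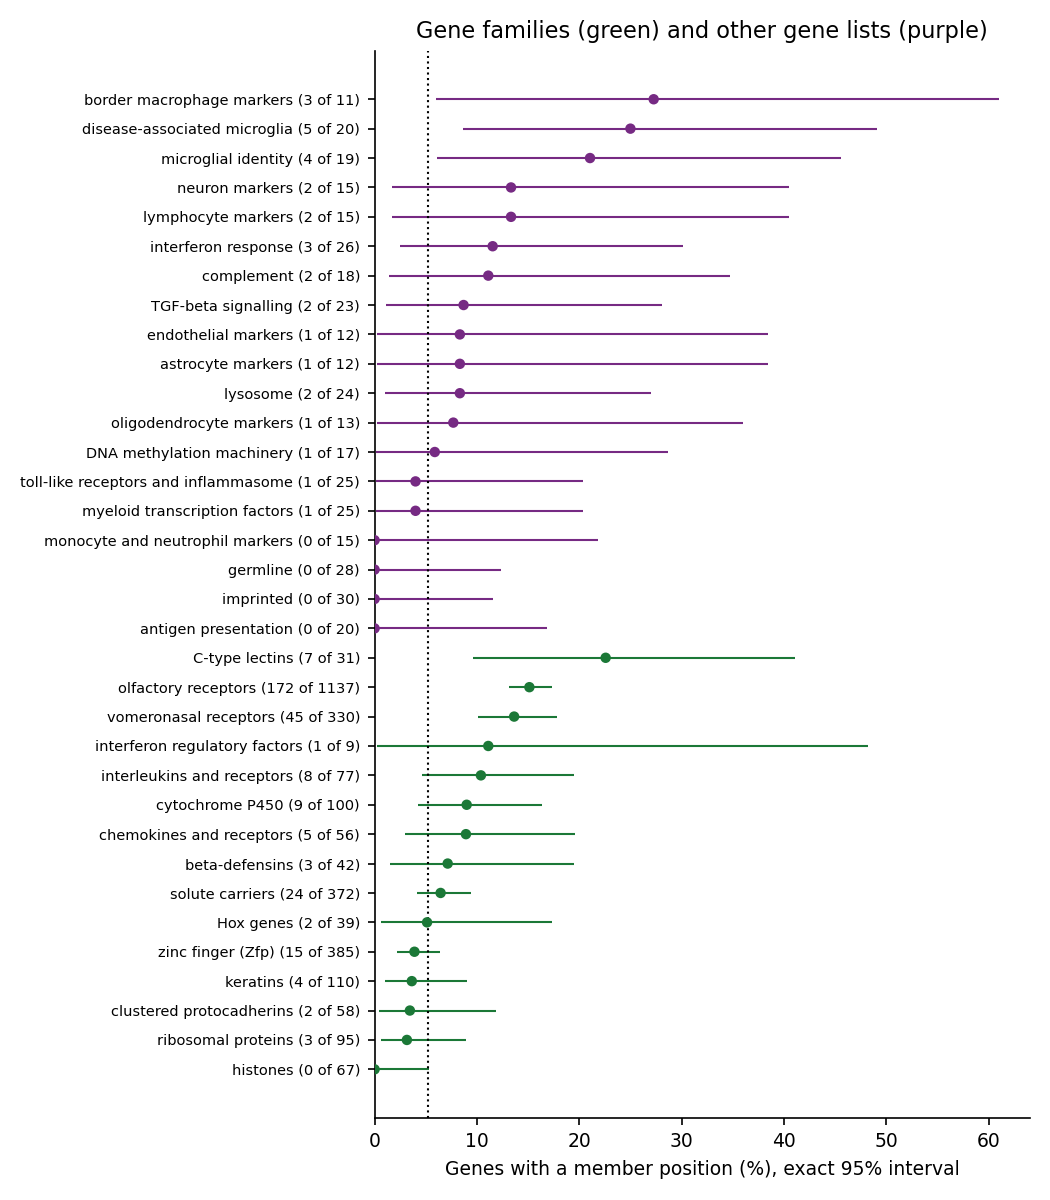
Share of the genes of each list (%) that hold a member, with exact 95% intervals as lines, gene families in green and other lists in purple, and the share of all protein-coding genes, 5.25%, as a dotted line. The intervals of the C-type lectins and of the olfactory and vomeronasal receptors lie above the line, as do those of the border macrophage, disease-associated and microglial identity lists. The line takes no account of CpG number. Of genes with 20 to under 40 CpGs per window 6.45% held a member. The medians of the border macrophage and microglial identity lists fall in that class, and their intervals hold the 6.45%.

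Chemosensory receptor genes formed the largest group of member genes. Olfactory receptors, expressed in the nose, held a member in 172 of 1137 genes (15.1%, 13.1 to 17.3, against 5.25% of all genes). Of these 109 were higher, 60 lower and 3 had both. A called one was held by 39 (3.43%, 2.45 to 4.66, against 0.964% of all genes), 26 higher and 13 lower. Vomeronasal receptors held a member in 45 of 330 genes (13.6%, 10.1 to 17.8), and 12 were called (3.64%, 1.89 to 6.27), 10 higher and 2 lower. Their promoters are poor in CpGs, with medians of 8.5 and 7.5 per window. Among genes with under 10 CpGs, 16.7% (14 to 19) of 980 receptor genes and 10.3% (8.4 to 13) of 882 other genes held a member, and 3.98% and 3.63% a called one, so the called shares lay within each other's intervals. Vmn1r169 had levels of 0.915 and 0.330 (FDR 0.00502 at the C) in the authors' deposited table. Olfr1496 was lower, with 0.273 and 0.720 (FDR 4.77e-16) at its called position in the authors' deposited table, although 4 of its 6 members were higher. Tas2r124, a bitter taste receptor, had 0.294 and 0.952 (FDR 1.84e-06) in the authors' deposited table. Near-identical copies are common in these families, so the placement of reads is uncertain.

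Among genes lower in the first group with the most called CpGs, Ms4a4c, a myeloid membrane protein gene, had 3, with levels from 0.330 to 0.354 in the first and 0.740 to 0.820 in the second group and, in the authors' deposited table, FDRs from 0.00162 to 0.0140. Mtmr2, a lipid phosphatase gene, had 2 called CpGs 240 and 157 bp upstream of its start that share the levels 0.322 and 0.816, with a lowest FDR of 1.46e-08, in the authors' deposited table. Chchd3, which encodes a protein of the mitochondrial inner membrane, had 3 called CpGs around its start, with first-group levels of 0.326 to 0.383 against 0.846 to 0.857 in the authors' deposited table. Dgkd, a diacylglycerol kinase gene, had 2, with 0.221 against 0.613 (FDR 0.00603) and 0.212 against 0.565 (FDR 0.0272) in the authors' deposited table. Tmem51 had 2 called CpGs among 10 members, all lower. Gml and Gml2 share a single CpG, 795 bp upstream of the Gml start and 522 bp downstream of the Gml2 start, which had 0.209 and 0.636 (FDR 7.18e-15) in the authors' deposited table, and Ctsm, a cathepsin gene, had 0.471 and 0.766 (FDR 9.38e-09) in the authors' deposited table.

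On the higher side the remaining genes with the most or strongest calls were C2cd3, AB124611, Gm15056, Skint8 and Gm17334. C2cd3, needed for cilia, had called levels of 0.519 against 0.160 and 0.655 against 0.309 (FDRs 0.0406 and 0.0300) in the authors' deposited table. Skint8, a relative of a gene that selects skin T cells, had 0.871 and 0.509 (FDR 1.97e-16), and Gm17334 had 0.942 and 0.420 (FDR 1.76e-12), in the authors' deposited table. AB124611 (0.567 and 0.208, FDR 0.0412) and Gm15056 (0.900 and 0.625, FDR 0.0328) each had 2 called CpGs that share their levels in the authors' deposited table.

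The next differences are the largest among called members with own dispersions, so rows with the most common value of either group are left out. They lay at Iigp1, Il15, Vmn1r169, Tas2r124 and Chchd3, described above, and at 4 further genes. Aadacl2 had levels of 0.935 and 0.277, Clca4b 0.688 and 0.141, Gm3298 0.256 and 0.923 and Tbl1xr1, a subunit of a nuclear corepressor complex, 0.157 and 0.795, with FDRs at the C of 0.0248, 4.55e-05, 0.000313 and 0.00882, in the authors' deposited table. These 4 genes were each called at both cytosines. Gm3298 belongs to a multicopy family, for which the placement of reads is uncertain. Tbl1xr1 differs from most called genes in having a promoter rich in CpGs (a mean of 115.5 per window), although its called CpG stood 241 bp upstream of a start.

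Long stretches of members carried many positions and few calls. Members within 500 bp of each other formed 1163 clusters, of which 497 held 1 position and 99 held at least 10. The 99 large clusters held 1845 positions with 10 calls (0.542%), and the 497 lone positions 71 calls (14.3%). Only 1 cluster held both directions, and neighbouring positions often share a fitted level. Of 37 genes with at least 10 member CpGs, 18 were higher throughout, 14 lower throughout and 5 mixed, and only Sorbs3 had a called position.

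The stretch at Usp35, a ubiquitin protease gene, ran over 473 bp (chr7:97325422-97325894) of coding sequence and intron downstream of a start with 68 member CpGs and median levels of 0.530 and 0.262. None was called, the lowest FDR in the authors' deposited table being 0.720. Near another start of Usp35, 3 CpGs had the opposite order, with medians of 0.293 and 0.603. Arhgap22, which encodes a regulator of the small GTPase RAC1, had 55 member CpGs over 529 bp (chr14:33350992-33351520) across one start, at medians of 0.393 and 0.121, and 6 in the opposite order at another start, at 0.202 and 0.531. Adgrg1, which encodes the adhesion receptor GPR56 of microglia, had 30 member CpGs in 4 clusters, all lower, with a median of 0.473 against 0.747. At Ifitm3, which encodes an antiviral membrane protein, 14 CpGs just downstream of the start (chr7:141010317-141010720) were all lower, at a median of 0.289 against 0.571. The Adgrg1 members reached to 1 bp from a called region, and the 6 CpGs of Arhgap22 to 113 bp. The Usp35 members, the long Arhgap22 stretch and the Ifitm3 CpGs lay 44533 bp or more away.

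**Figure D5:**
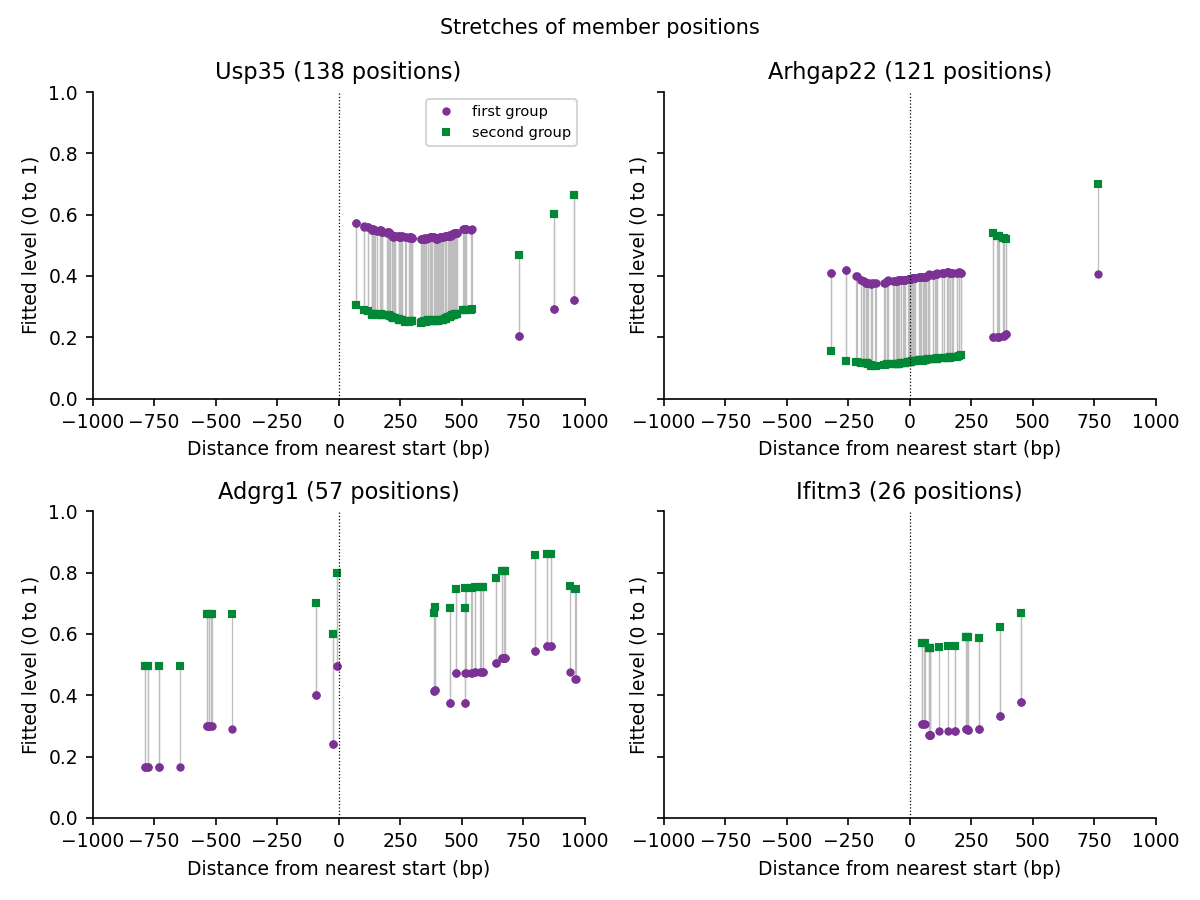
Fitted methylation level (0 to 1) of each member in the first (purple circles) and second (green squares) group, joined by grey lines, by distance in bp from the nearest start of the gene, for Usp35, Arhgap22, Adgrg1 and Ifitm3. Fitted levels, which neighbouring positions often share, change smoothly from one position to the next. Adgrg1 and Ifitm3 are lower in the first group throughout. Usp35 and Arhgap22 hold a long stretch that is higher and a few positions that are lower.

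Others of the 20 genes with the most member CpGs, again chosen after the values were seen, included transcription regulators and receptors. Rara, the retinoic acid receptor alpha, had 23 member CpGs, all lower (median 0.448 against 0.768, lowest FDR 0.0675 in the authors' deposited table). Runx2, a factor of bone and blood cells, had 18 CpGs, all lower, ending 4 bp from a called region. Aplnr, the apelin receptor, had 16 CpGs, all higher (median 0.620 against 0.334), and Tnfsf13, which encodes the B cell factor APRIL, had 14, all higher (0.705 against 0.329). Slc4a4, a bicarbonate transporter of astrocytes, had 14, all lower (0.536 against 0.864, lowest FDR 0.0597 in the authors' deposited table). Kcnip3, Sept9 and Sorbs3 had stretches in both directions near different starts. Members of Rara, Sept9 and Sorbs3 came within 1 bp of a called region and those of Kcnip3 within 5 bp. The members of Aplnr, Tnfsf13 and Slc4a4 lay 404207 bp or more away.

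The share of reference CpGs that were listed differed along the promoter. Between 750 and 1000 bp upstream 0.424% of the reference CpGs outside regions were members, against 0.0891% in the 250 bp before the start and 0.0771% in the 250 bp after it, rising again to 0.357% between 750 and 1000 bp downstream. CpGs are also densest at the start, with 447619 reference CpGs in the first 250 bp downstream and 80748 in the outermost 250 bp upstream. The bins were not compared at equal CpG density, so position and density cannot be told apart here. The share of members higher in the first group was between 54.1% and 63.6% in all bins but the outermost upstream one, where it was 48.9%. By annotation 54.3% of members lay in introns, 16.2% in coding sequence, 10.2% in untranslated regions and 19.3% outside protein-coding transcripts, and 9.10% of the last were called against 2.31% of those in coding sequence. At the edge of the window, the 241 positions 951 to 1000 bp from a start had a median absolute difference of 0.311 and the 191 positions beyond 1000 and up to 1050 bp away, which are not members, 0.315.

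The direction of members near called regions was that of the region. Within 500 bp of a region lay 1007 members, and all 1007 had the sign of the nearest region. Fitted levels are often equal at neighbouring positions, as smoothed values are, and the authors built the regions from the same values. Equal signs close to a region were thus largely built in. Of the 1007 members near a region 43.0% (39.9 to 46.1) were higher in the first group and 14 (1.39%) called. Of the 3273 members farther away 63.7% (62.0 to 65.4) were higher and 218 (6.66%) called. Promoter positions inside regions were higher in 42.3% (40.3 to 44.4) of cases. Just outside regions, within 25 bp, 151 members had a median absolute difference of 0.331 and a median p of 0.00181 in the authors' deposited table. The 528 promoter positions within 25 bp inside a region's edge had 0.375 and 0.000351. Of the 1089 member genes 113 (10.4%) also had a promoter position inside a region, which is 79% of the 143 genes with one.

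Counting each cluster once, by its position with the largest statistic, the share higher in the first group was above 50% on 16 of 19 autosomes. Counting positions it was above 50% on 15, equal to it on 1 and below it on 3. Chromosome 8 had the lowest share by positions, 30.6% of 242, but 55.3% of its 47 clusters were higher. Adgrg1, Ap1g1, Tcim and Ushbp1 on that chromosome each had a long stretch of lower positions. Chromosome 6, with 72.9% of 207 positions and 61.0% of 77 clusters higher, holds the lectin genes named above.

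Composite elements for an ETS factor with an IRF factor were searched as GGAANNGAAA, and tandem IRF elements as GAAANNGAAA, on both strands within 100 bp on either side of 1 CpG per cluster. The composite letters were present at 32 of 470 lower clusters (6.81%, 4.70 to 9.48) and 21 of 693 higher ones (3.03%, 1.89 to 4.59), against 1.31% of all reference promoter CpGs outside regions. The tandem letters were present at 4.68% of the lower and 3.75% of the higher clusters, against 1.55%. CpG-poor sequence holds such letters more often. Restricted to CpGs with at most 3 CpGs in the window, a comparison chosen after the values were seen, the composite shares were 6.28% (4.11 to 9.13) of 398 lower and 3.59% (2.24 to 5.44) of 585 higher clusters against 2.09%, and the tandem shares were 4.27% and 3.42% against 2.85%. Among clusters with a called position the composite letters occurred at 5 of 69 lower and 5 of 128 higher ones.

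Tet2 and Cyp4a10, a fatty acid hydroxylase gene chosen after its values were seen, show what such a match looks like next to a called CpG that was lower in the first group. In these stretches of the plus strand, capitals mark the called CpG and the composite letters.
Tet2, chr3:133477157-133477258: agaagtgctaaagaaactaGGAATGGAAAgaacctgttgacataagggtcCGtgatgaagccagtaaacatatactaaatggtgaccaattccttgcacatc
Cyp4a10, chr4:115517601-115517702: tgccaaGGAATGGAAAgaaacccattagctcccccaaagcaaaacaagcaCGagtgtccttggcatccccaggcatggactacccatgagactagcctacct
At Cyp4a10 the authors' deposited table gives levels of 0.106 and 0.582 (FDR 0.000211 at the C), 613 bp upstream of the start. A match of letters describes the sequence and does not show that a factor binds there.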

How the data were processed

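Whole-genome bisulfite libraries of 4 samples, 2 per group, were processed with Trim Galore and Bismark on mm10, per the submitters' processing notes. For the group comparison, the sources used here name neither tool nor settings. The authors deposited, per the file headers, a list of single cytosines with a fitted level per group (a value from 0 to 1), their difference and SE on the same scale, a test statistic (a score), a dispersion per group, a p-value and an FDR, and a posterior probability whose smallest value was 0.95. They deposited a second list of regions with start and end. Read depth is unknown and neither list has values per sample, so no test was added. A call is the authors' deposited FDR under 0.05.

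Of listed autosomal positions 77.6% lay on a CpG of GRCm38 (RefSeq copy), which is mm10. Coordinates count from 1. Transcripts, introns, coding and untranslated sequence came from GENCODE release M21, of which 52128 protein-coding starts were used. A position near several genes was given to each (71 positions). Clusters joined positions up to 500 bp apart. A dispersion was called a position's own where neither group had the most common shared value, 0.0571 in the first and 0.0558 in the second group. Joins were tested on simulated data.

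Genes were named by rule: per direction the 10 with the most called CpGs, the 5 with the largest called difference at own dispersions, listed genes with a call, and genes called in both directions. Genes named for other reasons are in a counted list or family, hold a long stretch, or are marked as chosen later. The members, the 19 symbol lists and the 15 families were chosen with earlier results of these data known. Alternatives were other windows, transcript sets, distances to regions, ways of counting, dispersions and FDR thresholds. Python 3.11.15, pandas 2.3.3, numpy 2.4.6, scipy 1.17.1 and matplotlib 3.10.9 were used.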

Additional observations from a re-analysis of the deposited data

How the results depend on the processing

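Of 59 recomputed values 34 stayed within 1.5 times the count, or within the 95% interval of the share or median, and 25 moved. None reversed, and the share of members higher in the first group stayed above 50% throughout. With 500 bp each side there were 2041 members near 507 genes, 100 called, and with 2000 bp 8977 near 2354 genes, 511 called. The share higher was 60.8% with 500 bp, 63.7% at least 500 bp from a region and 56.6% without Usp35 and Arhgap22, the 2 genes with the most member CpGs. Counting each CpG once gave 2717 members and counting each cluster once 1163. Own dispersions only left 702 genes and 59 called members, 55.9% (42.4 to 68.8) of them higher. An FDR under 0.01 left 121 calls and one under 0.001 left 68. Requiring both cytosines of the CpG to be called left 40 positions, 55.0% (38.5 to 70.7) of them higher. The median absolute difference was 0.312 and 0.300 with 2000 and 500 bp, 0.306 at least 500 bp from a region, 0.304 per CpG, 0.313 per cluster, 0.310 with starts tagged basic and 0.311 without the 2 genes. Leaving out those 2 genes, leaving out olfactory and vomeronasal receptors, and requiring both cytosines were chosen after seeing the data. No paired analysis was possible because neither table lists single samples. For the same reason leaving out a replicate and a coverage minimum were not run.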

Other observations

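Promoter positions outside the called regions that are not on a CpG of the reference numbered 1129. Of these, 113 (10.01%) had a deposited FDR under 0.05, a larger share than the 5.42% of the members. The share higher in the first group was 58.9%, against 58.8% of the members. Mammalian methylation is mostly at CpGs, and what these positions off a reference CpG are was not tested.

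Rows with the most common dispersion in both groups made up 10.3% of the members and 41.4% of the called members. Called members had a smaller median SE (0.0828) than the others (0.106) as well as a larger median absolute difference (0.385 against 0.306).

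Of the CpGs called at both cytosines, 2 lie in genes of immune cells that no rule named and that were picked after their values were seen. Cd44, a hyaluronan receptor of activated leukocytes, had levels of 0.794 and 0.423 in an intron 960 bp downstream of a start, and Tnip3, an inhibitor of NF-kappaB signalling, had 0.684 and 0.242 in the authors' deposited table. Of 100 cytochrome P450 genes 9 held a member (9%, 4.20 to 16.4, against 5.25% of all genes), 4 higher and 5 lower. A called one was held by 3 (3%, 0.623 to 8.52, against 0.964%), 1 higher and 2 lower. The lower ones were Cyp4a10 and Cyp4a12b, the latter at 0.251 and 0.770 (FDR 0.0113) in the authors' deposited table. Of 110 keratin and keratin-associated genes 4 held a member (3.64%), all higher, and 3 were called (2.73%, 0.566 to 7.76). Of 42 beta-defensins 3 held a member (7.14%), all higher, and 2 were called (4.76%, 0.582 to 16.2). Of all genes 5.25% held a member and 0.964% a called one. Defb3 had 0.704 and 0.172 (FDR 2.19e-09) in the authors' deposited table. The calls of Tnip3, Cyp4a12b and Defb3 rested on a dispersion shared by many sites.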
